A study of Mus musculus with 9 samples.

Results

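The genes described here are 247 zinc finger genes of the mouse, chosen by their class, name and abundance: they are protein-coding, carry a symbol that starts with Zfp and a digit, and had counts that summed to 1000 or more over the 9 libraries. They are 247 of 394 protein-coding Zfp genes and of 55416 genes in the deposited counts; 147 Zfp genes fell below the threshold, 22 of them with no count in any library. The measured values that selected them were these summed counts, with no contrast between groups. The gene just inside it was Zfp975 with 1001 counts and the gene just outside was Zfp119a with 990. All 247 passed the filter on low counts.

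The counts come from RNA-seq of 4T1 cells, an established breast cancer cell line from the BALB/c strain of mouse, with 3 libraries in each of 3 groups. The PBS group was kept in fresh culture medium for 12 hours and is the untreated control. The MRC group was exposed for 12 hours to MRC nanoparticles, a name that the labels do not spell out. The MRC+L group had the same exposure and 3 minutes of 660 nm laser light. None of the 9 libraries had light without nanoparticles, so light alone cannot be told apart from light on exposed cells. The labels do not say whether the libraries of a group came from separate cultures, so the p-values measure the spread between these libraries, which may be technical.

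The classical zinc finger of this family, called C2H2, is a short loop in which a pair of cysteines and a pair of histidines hold a zinc ion. Fingers stand in tandem, and each can read a few bases of DNA. Many of these proteins also carry a KRAB domain, which brings in the corepressor Trim28 and the histone methyltransferase Setdb1 and so places repressive chromatin on the bound sequence. Such KRAB zinc finger proteins are known for silencing transposable elements, and their genes stand in clusters of related copies. A small unrelated branch, with CCCH fingers, binds AU-rich elements of mRNA and recruits the deadenylation machinery.

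Patterns in the translated coding sequences put 129 of the 247 genes in a class with KRAB and C2H2 fingers, 111 in a class with C2H2 fingers and no KRAB match, and 3 in the CCCH class; the other 4 (Zfp330, Zfp503, Zfp703 and Zfp839) matched none of these. The 240 genes with C2H2 matches held a median of 10 fingers and up to 36. The finger units below show the repeat in 4 of the genes described later. Each is the first complete C2H2 unit of the coding strand with its linker, 84 bases 5′ to 3′ from the GENCODE M21 transcripts (GRCm38), with the codons of the zinc-binding cysteines and histidines in capitals. Zfp9 (chr6:118465181-118465264, minus strand), Zfp945 (chr17:22852207-22852290, minus strand) and Zfp568 (chr7:30022724-30022807, plus strand) were higher in both exposed groups, and Zfp667 (chr7:6304770-6304853, plus strand) was lower. All lie within 1 coding exon.
Zfp9: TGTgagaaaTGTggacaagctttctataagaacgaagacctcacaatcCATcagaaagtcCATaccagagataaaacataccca
Zfp945: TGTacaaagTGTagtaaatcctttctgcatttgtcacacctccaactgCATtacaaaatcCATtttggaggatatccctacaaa
Zfp568: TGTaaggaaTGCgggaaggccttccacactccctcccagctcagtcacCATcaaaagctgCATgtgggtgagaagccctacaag
Zfp667: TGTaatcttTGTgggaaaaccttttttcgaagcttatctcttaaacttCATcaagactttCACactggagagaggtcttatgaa
Any pair of these 4 units shared 43 to 47 of 84 bases, with no gap allowed.

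The CCCH genes are shown by the 60 bases that code for their first finger, with the codons of the 3 cysteines and the histidine in capitals. They are Zfp36 (chr7:28378158-28378217), Zfp36l1 (chr12:80110189-80110248) and Zfp36l2 (chr17:84186668-84186727), all on the minus strand of GRCm38. They are shown because these related fingers belong to genes that moved in opposite directions.
Zfp36: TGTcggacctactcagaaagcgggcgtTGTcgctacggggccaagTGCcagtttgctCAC
Zfp36l1: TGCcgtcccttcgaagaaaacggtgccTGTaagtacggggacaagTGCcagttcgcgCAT
Zfp36l2: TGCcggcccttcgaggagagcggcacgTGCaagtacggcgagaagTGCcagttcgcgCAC
Zfp36l1 and Zfp36l2 shared 49 of 60 bases, Zfp36 and Zfp36l1 shared 42, and Zfp36 and Zfp36l2 shared 40.

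Library totals were 15019765 to 20044166 counts, and 3 counts, the limit that a count of 0 allows, correspond to 0.150 to 0.200 CPM (CPM here and below is the count scaled to library size with TMM factors). One control library, PBS2, stood apart: its short genes were 1.25 higher than its long genes on the log2 scale relative to the other libraries, against -0.32 to 0.14 in the other 8. The Zfp genes are long, with a median exon length of 5096 bases against 4121 for all tested genes, and PBS2 had the lowest value of all 9 libraries for 150 of the 247. Fold changes and counts of calls against PBS are therefore in most cases followed by their values without PBS2. The labelled mammary cancer cells had the keratins Krt8 (718 ± 173 CPM in PBS, 352 ± 18.2 in MRC and 311 ± 5.34 in MRC+L) and Krt18 (577 ± 219 CPM in PBS, 201 ± 3.97 in MRC and 175 ± 6.12 in MRC+L; mean ± SD, n = 3). The summed level of 8 epithelial markers, 5 of which passed 1 CPM, was 1056 to 1878 CPM in PBS, 633 to 666 in MRC and 560 to 572 in MRC+L. The epithelial markers did not all move together. Of the 6 tested after MRC, 1 was called higher and 2 lower, with log2 fold changes from -1.52 to 1.72. Without PBS2, 1 was higher and 3 were lower. The leukocyte markers Adgre1 and Cd3e were at 0 in every library, and the 8 leukocyte markers together reached 27.9 to 44.3 CPM in PBS, 33.6 to 41.1 in MRC and 33.5 to 38.5 in MRC+L, with 2 above 1 CPM (Cd14 and Cd68). Fibroblast and endothelial markers, 4 of 8 above 1 CPM, summed to 46.8 to 83.96, 80.7 to 97.6 and 77.6 to 88.6 CPM in the same order. The part of these marker differences in the results below was not tested.

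The 247 genes together took 0.855, 0.656 and 0.958% of the counts in the 3 PBS libraries, 0.992, 1.014 and 0.971% in MRC, and 1.039, 1.053 and 1.027% in MRC+L. All 6 exposed libraries lay above all 3 PBS libraries. PBS2 was the lowest, but PBS1 and PBS3 were also below every exposed library. In these bulk libraries, a change in every cell and a change in the number of cells that carry a transcript cannot be told apart.

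**Figure D1:**
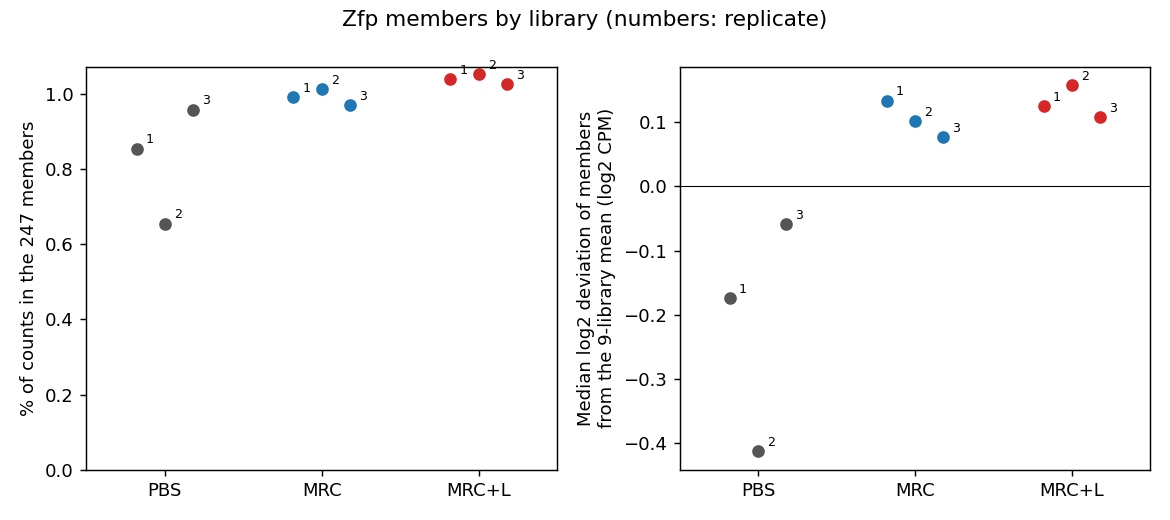
Left, percent of each library's counts in the 247 Zfp genes; right, the median over those genes of the log2 CPM deviation from the 9-library mean. Points are libraries, numbered by replicate. The 6 exposed libraries lie at 0.971 to 1.053%, above the PBS libraries at 0.656 to 0.958%.

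The first comparison asks what the nanoparticles alone did. With MRC, 90 of the 247 genes rose and 12 fell at a Benjamini-Hochberg adjusted p under 0.05 in edgeR's quasi-likelihood test, adjusted over all 13439 tested genes. Of all tested genes, 17.8% rose and 19.8% fell. The median log2 fold change was 0.30 over the Zfp genes and -0.03 over all tested genes, and 191 of the 247 values were positive. Changes were modest: 55 of the 90 that rose passed 1.5-fold and 11 passed 2-fold. Of all 13439 tested genes, 1671 rose over 1.5-fold and 794 over 2-fold. At 2-fold the share of the 247 genes was thus no larger than that of all tested genes. Without PBS2, 100 rose and 30 fell, with a median of 0.21, against 24.7% and 26.0% of all genes tested in that fit. All 90 and all 12 genes called with PBS2 were called in the same direction without it (of all tested genes, 17.4% and 19.2% were called both times). Without MRC1, only 49 rose and 9 fell, and 47 and 8 were called with every library and with each of the 9 left out in turn. Fewer were also called when only the 6 libraries of PBS and MRC were fitted, with counts given in the last section. The shares of all tested genes under these rules were not computed. Whether such losses are particular to the Zfp genes was not tested. All 3 MRC libraries exceeded all 3 PBS libraries for 111 of the genes (24.1% of all tested genes), and all lay below them for 20 (24.2%).

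With MRC+L, 98 genes rose and 18 fell, beside 21.8% and 24.5% of all tested genes, with a median of 0.35 against -0.03. Without PBS2, 104 rose and 28 fell (27.4% and 28.3% of all tested genes) and the median was 0.23. Called both with and without PBS2 were 95 higher and 17 lower (21.2% and 23.4% of all tested genes). Leaving out MRC+L2 took the genes that fell from 18 to 10. With every library and with each left out in turn, 74 rose and 10 fell, and the matching shares of all tested genes were again not computed. The 3 MRC+L libraries all exceeded the PBS libraries for 123 genes (28.2% of all tested genes) and all lay below for 21 (28.1%). This comparison shares its control libraries with the first, so the similarity of both is no independent repeat.

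**Figure D2:**
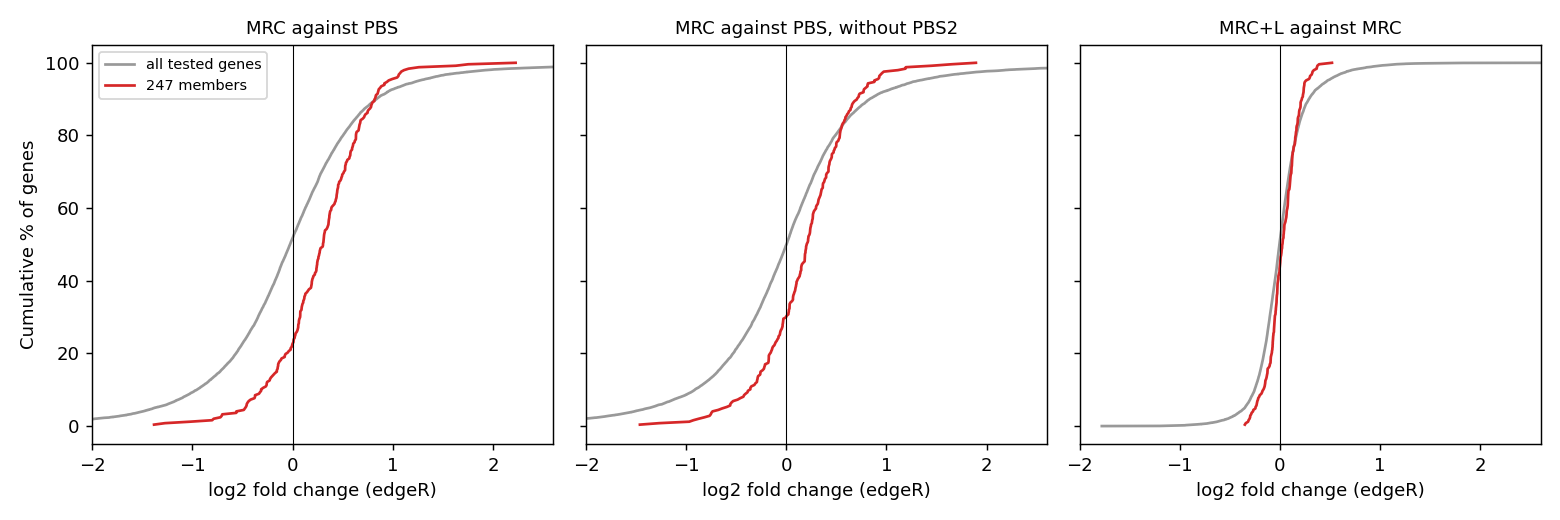
Cumulative percent of genes (y) by log2 fold change (x) for the 247 Zfp genes in red and all tested genes in grey, in MRC against PBS with all libraries, MRC against PBS without PBS2, and MRC+L against MRC. The red curve lies to the right of the grey near 0 in the first 2 panels, with medians of 0.30 and 0.21, and near it in the third, with a median of 0.03.

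The gene with the largest rise in both exposed groups was Zfp9, a KRAB gene (chromosome 6, 118438911-118456281, minus strand, GRCm39). Its level was 8.98, 3.88 and 11.3 CPM in PBS, 40.3, 34.9 and 37.99 CPM in MRC, and 47.7, 45.4 and 48.3 CPM in MRC+L. The groups did not overlap, and PBS2 was the lowest of the controls. The log2 fold change against PBS was 2.23 ± 0.29 (SE) after MRC (adjusted p = 0.000262) and 2.55 ± 0.29 (SE) after MRC+L (adjusted p = 8.90e-05). Without PBS2 it was 1.89 and 2.22.

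Zfp945 (chromosome 17, 23065671-23086108), a KRAB gene with 18 finger matches, came next. Its libraries read 25.6, 13.1 and 34.05 CPM in PBS, 81.7, 76.5 and 86.7 CPM in MRC, and 88.8, 92.9 and 82.8 CPM in MRC+L. Every exposed library was above every PBS library, with log2 fold changes of 1.75 ± 0.27 (SE) after MRC (adjusted p = 0.000670) and 1.86 ± 0.27 (SE) after MRC+L (adjusted p = 0.000373), or 1.45 and 1.57 without PBS2.

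Zfp202 (chromosome 9, 40103612-40124900) had the most even values among the genes that rose most. Its libraries read 28.8, 25.8 and 30.6 CPM in PBS, 71.2, 66.8 and 65.9 CPM in MRC, and 68.9, 74.98 and 73.8 CPM in MRC+L. Here PBS2 was close to its group, and the log2 fold change was 1.26 ± 0.10 (SE) after MRC (adjusted p = 1.56e-05) and 1.35 ± 0.10 (SE) after MRC+L (adjusted p = 7.06e-06), or 1.19 and 1.29 without PBS2. Zfp184 (chromosome 13, 22129264-22144949) read 3.03, 3.47 and 3.55 CPM in PBS, 12.5, 8.85 and 9.72 CPM in MRC, and 8.91, 8.23 and 7.63 CPM in MRC+L. It rose from a low level, by 1.63 ± 0.18 (SE) after MRC (adjusted p = 0.000103) and 1.30 ± 0.18 (SE) after MRC+L (adjusted p = 0.000307) on the log2 scale, or 1.65 and 1.33 without PBS2.

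Zfp568 (chromosome 7, 29683380-29727707) encodes a KRAB protein known for silencing a placental transcript of Igf2 in the mouse embryo. Its libraries read 50.1, 27.7 and 65.4 CPM in PBS, 108, 108 and 85.6 CPM in MRC, and 108, 119 and 108 CPM in MRC+L. The log2 fold change was 1.07 ± 0.25 (SE) after MRC (adjusted p = 0.00743) and 1.23 ± 0.25 (SE) after MRC+L (adjusted p = 0.00301), or 0.79 and 0.95 without PBS2. Its neighbour Zfp566 rose from 6.40 ± 0.746 CPM (SD, n = 3) to 14.3 ± 2.08 with MRC, by 1.16 ± 0.15 (SE) on the log2 scale. Zfp661 and Zfp874b complete the 8 genes with the largest rise after MRC, at 1.11 ± 0.23 (SE) and 1.08 ± 0.18 (SE). Without PBS2 Zfp566, Zfp661 and Zfp874b had 1.19, 0.93 and 0.97. All 8 matched the KRAB pattern. After MRC+L, Zfp142, Zfp800 and Zfp180, which did not match it (Zfp180 may hold a divergent KRAB box that the pattern misses), took the place of Zfp566, Zfp661 and Zfp874b among the 8 largest, at 1.20 ± 0.30 (SE), 1.17 ± 0.32 (SE) and 1.16 ± 0.16 (SE), or 0.88, 0.82 and 0.98 without PBS2. The call for Zfp142 after MRC was lost without MRC1, MRC2 or PBS1 (adjusted p = 0.0571 to 0.0959), and that for Zfp661 after MRC+L without MRC+L2 or MRC+L3 (0.0518 and 0.0672).

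**Figure D3:**
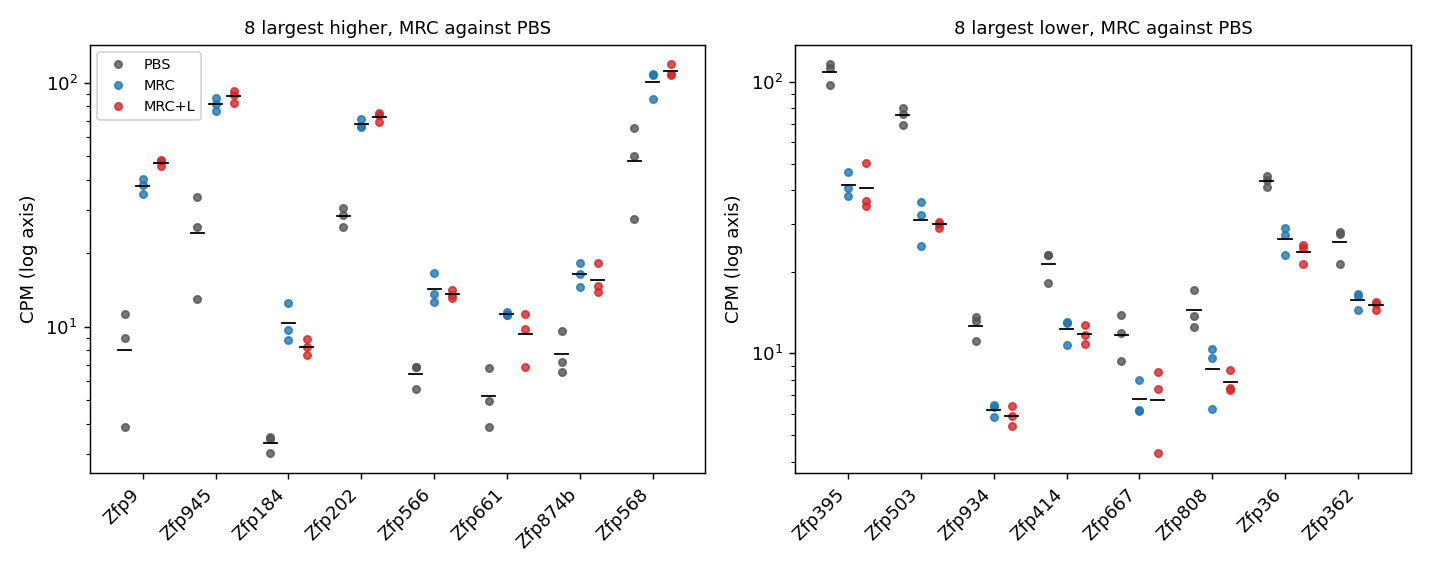
CPM on a log axis in each library for the 8 Zfp genes with the largest rise (left) and the 8 with the largest fall (right) in MRC against PBS; points are libraries, coloured by group, and bars are group means. In all 16 the MRC and PBS libraries do not overlap, as for Zfp9 (3.88 to 11.3 CPM in PBS, 34.9 to 40.3 in MRC).

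Zfp395 (chromosome 14, 65595838-65636379) fell most. Its libraries read 113, 97.7 and 116 CPM in PBS, 37.99, 46.5 and 40.8 CPM in MRC, and 50.2, 36.4 and 34.97 CPM in MRC+L. All 6 exposed libraries were below all controls, and the log2 fold change was -1.38 ± 0.15 (SE) after MRC (adjusted p = 0.000109) and -1.43 ± 0.15 (SE) after MRC+L (adjusted p = 6.57e-05), or -1.46 and -1.50 without PBS2. Zfp503 (chromosome 14, 22034027-22039669), a NET family repressor also called Nolz1, read 80.2, 76.2 and 69.5 CPM in PBS, 24.8, 32.4 and 36.2 CPM in MRC, and 30.03, 29.1 and 30.6 CPM in MRC+L. Its log2 fold change was -1.27 ± 0.14 (SE) after MRC (adjusted p = 9.73e-05) and -1.33 ± 0.14 (SE) after MRC+L (adjusted p = 5.39e-05), or -1.27 and -1.33 without PBS2. Its family member Zfp703, known as a luminal breast cancer gene, had no call, at 21.7 ± 2.39 CPM in PBS, 23.6 ± 1.97 in MRC and 23.1 ± 2.53 in MRC+L (mean ± SD, n = 3; adjusted p = 0.519 and 0.628, and 0.335 and 0.433 without PBS2).

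The KRAB gene Zfp934 fell from 13.1, 13.6 and 11.1 CPM in PBS to 5.83, 6.35 and 6.45 CPM in MRC and 5.89, 6.43 and 5.38 CPM in MRC+L. All exposed libraries again lay below the controls, with a log2 fold change of -1.02 ± 0.15 (SE) after MRC (adjusted p = 0.000503) and -1.10 ± 0.15 (SE) after MRC+L (adjusted p = 0.000265), or -0.97 and -1.04 without PBS2. Zfp414, Zfp667, Zfp808 and Zfp362 were lower by smaller amounts after MRC, with log2 fold changes of -0.80, -0.79, -0.72 and -0.70, or -0.75, -0.93, -0.82 and -0.64 without PBS2. Exons of Zfp414 overlap those of another gene over 30.4% of their length, and the counting used no strand option, so its value is uncertain. The call for Zfp667 after MRC was lost without MRC1, MRC2, PBS1 or PBS3 (adjusted p = 0.0680 to 0.113), and that for Zfp808 without MRC2 (0.0588). After MRC+L the call for Zfp667 was lost without MRC+L1, MRC+L2, PBS1 or PBS3 (0.0538 to 0.0814).

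The CCCH genes split. Zfp36, which encodes tristetraprolin, a protein that binds AU-rich elements in cytokine mRNAs and speeds their decay, read 44.9, 41.1 and 43.6 CPM in PBS, 22.99, 29.1 and 27.3 CPM in MRC, and 21.3, 25.2 and 24.4 CPM in MRC+L. It fell in both exposed groups, with log2 fold changes of -0.71 ± 0.12 (SE) after MRC (adjusted p = 0.00141) and -0.87 ± 0.12 (SE) after MRC+L (adjusted p = 0.000329), or -0.75 and -0.91 without PBS2. Zfp36l2 ran the same way, with 195, 186 and 208 CPM in PBS, 140.1, 139 and 141 CPM in MRC, and 139, 156 and 144 CPM in MRC+L. Its log2 fold change was -0.49 ± 0.09 (SE) after MRC (adjusted p = 0.00280) and -0.42 ± 0.09 (SE) after MRC+L (adjusted p = 0.00477), or -0.53 and -0.46 without PBS2.

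Zfp36l1, the third of the family, was the reverse, with 68.8, 65.3 and 76.2 CPM in PBS, 89.5, 90.4 and 88.5 CPM in MRC, and 97.6, 96.7 and 94.1 CPM in MRC+L. Its exposed libraries were all above its PBS libraries, and the log2 fold change was 0.35 ± 0.09 (SE) after MRC (adjusted p = 0.0135) and 0.46 ± 0.09 (SE) after MRC+L (adjusted p = 0.00288), or 0.30 and 0.41 without PBS2. The call after MRC was lost without PBS1 (adjusted p = 0.0544). The list of deadenylation and decapping genes, the machinery these proteins recruit, had 2 of 22 genes higher and 2 lower after MRC (9.09% each, beside 17.8% and 19.8% of all tested genes), and 3 and 4 after MRC+L (13.6% and 18.2%, beside 21.8% and 24.5%). Without PBS2 these were 4 and 4 after MRC, and 5 and 6 after MRC+L. Cnot4, a ubiquitin ligase of the CCR4-NOT complex, rose by 0.78 ± 0.12 (SE) after MRC (adjusted p = 0.000613), and the deadenylase Cnot6 changed by -0.60 ± 0.18 (SE) (adjusted p = 0.0234), or by 0.70 and -0.81 without PBS2.

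**Figure D4:**
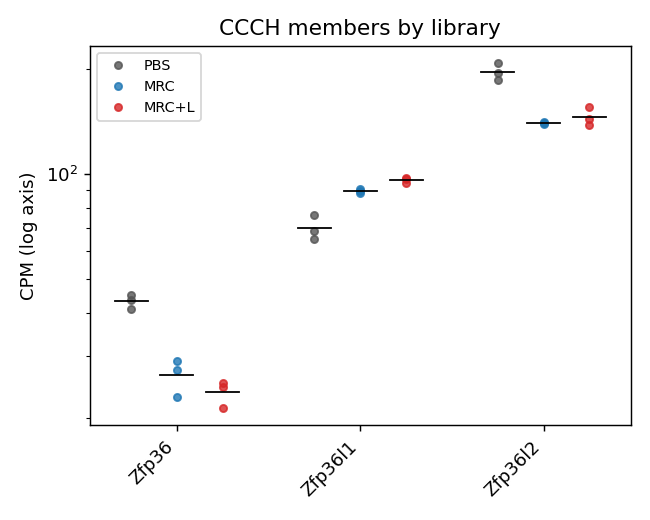
CPM on a log axis in each library for the 3 CCCH genes; points are libraries, coloured by group, and bars are group means. Zfp36 and Zfp36l2 are lower in all exposed libraries than in any PBS library, and Zfp36l1 is higher.

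Among KRAB genes, 48 of 129 rose (37.2%) and 5 fell (3.88%) after MRC, beside 17.8% and 19.8% of all tested genes, and their median log2 fold change was 0.31. After MRC+L 52 rose (40.3%) and 7 fell (5.43%), beside 21.8% and 24.5% of all tested genes, at a median of 0.37. Of the 111 C2H2 genes with no KRAB match, 40 rose (36.0%) and 4 fell (3.60%) after MRC (median 0.26), and 44 rose (39.6%) and 8 fell (7.21%) after MRC+L (median 0.30). Lower calls were more frequent without PBS2. For KRAB genes that fit gave 51 higher and 11 lower after MRC and 52 and 8 after MRC+L, with medians of 0.22 and 0.24. For C2H2 genes without a KRAB match it gave 47 and 16 after MRC and 50 and 17 after MRC+L, with medians of 0.19 and 0.22. A rise over 2-fold was called for 10 of the 129 KRAB genes and 1 of the 111 others after MRC, and for 10 and 9 after MRC+L. Of all 13439 tested genes, 794 rose that far after MRC and 1113 after MRC+L, so the KRAB share was near theirs. Without PBS2 the counts were 6 and 0 in each comparison, beside 830 of all 13747 tested genes after MRC. No test of the difference between the classes was run. Of the 6 genes with a SCAN pattern, a dimerization domain, 2 rose after MRC and 4 after MRC+L, and 4 rose after each without PBS2; edgeR called none of them lower. Log2 fold change went with the number of finger matches only weakly across 240 genes (Pearson r = 0.18 after MRC, and 0.09 without PBS2), which share the same libraries. It went with exon length at r = 0.09 after MRC, and at -0.05 without PBS2.

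Known silencers of retroviruses and imprinted genes were among the KRAB genes that rose. Zfp809, which silences retroviruses at their primer binding site, read 21.8, 11.7 and 28.01 CPM in PBS, 37.7, 34.3 and 32.1 CPM in MRC, and 40.4, 41.2 and 36.7 CPM in MRC+L. Its log2 fold change was 0.76 ± 0.25 (SE) after MRC (adjusted p = 0.0355) and 0.94 ± 0.25 (SE) after MRC+L (adjusted p = 0.0113), or 0.47 and 0.66 without PBS2, but the call after MRC was lost when any library other than PBS2 or PBS3 was left out (adjusted p = 0.0512 to 0.110). Zfp57, which keeps methylation at imprinted loci, had 12.6 ± 1.93 CPM in PBS, 18.1 ± 2.06 in MRC and 17.7 ± 1.35 in MRC+L (mean ± SD, n = 3) and rose by 0.52 ± 0.15 (SE) after MRC (adjusted p = 0.0190) and 0.50 ± 0.15 (SE) after MRC+L (adjusted p = 0.0203), or 0.64 and 0.62 without PBS2. That call too was lost without MRC1 or PBS1 after MRC (0.0819 and 0.0655) and without MRC+L1 or PBS1 after MRC+L (0.0754 and 0.0677). Zfp445, which shares the role of Zfp57, read 125, 66.98 and 164 CPM in PBS, 175, 189.9 and 188 CPM in MRC, and 206, 206 and 210.3 CPM in MRC+L. It missed the threshold after MRC (adjusted p = 0.0702, and 0.00690 without PBS2) and passed it after MRC+L, at 0.81 ± 0.25 (SE) (adjusted p = 0.0239), or 0.52 without PBS2. The MRC+L call was lost without PBS1 or any 1 MRC+L library (0.0530 to 0.0594).

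Of 29 listed genes of the corepressor machinery that KRAB proteins use, 4 rose (13.8%) and 9 fell (31.0%) after MRC, beside 17.8% and 19.8% of all tested genes, and 5 rose (17.2%) and 10 fell (34.5%) after MRC+L, beside 21.8% and 24.5%. Their median log2 fold changes were -0.03 and -0.05, close to those of all tested genes. Without PBS2, 6 rose and 12 fell after MRC, and 10 and 13 after MRC+L. The histone chaperone Daxx fell from 131 ± 20.3 CPM (SD, n = 3) to 51.9 ± 0.225 with MRC, by -1.33 ± 0.12 (SE) on the log2 scale (adjusted p = 2.85e-05). The deacetylase Hdac1 changed by -0.87 ± 0.09 (SE) and the methylation maintenance factor Uhrf1 by -1.18 ± 0.13 (SE) (adjusted p = 8.45e-05 and 9.20e-05). Morc2a, an ATPase that works with the HUSH silencing complex, rose by 0.79 ± 0.17 (SE) (adjusted p = 0.00420). Without PBS2 the values of Daxx, Hdac1, Uhrf1 and Morc2a were -1.24, -0.86, -1.31 and 0.60. Trim28 itself had 427 ± 79.3 CPM in PBS, 488 ± 36.00 in MRC and 447 ± 2.62 in MRC+L (mean ± SD, n = 3), with adjusted p-values of 0.296 and 0.710. PBS2 was the highest control for Trim28, at 513 CPM, and without it the gene was called higher in both, by 0.34 (adjusted p = 0.00267) and 0.22 (adjusted p = 0.0370).

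Other families of zinc finger factors gave these counts after MRC: 18 of 38 tested Zbtb genes rose (47.4%) and 2 fell (5.26%), 4 of 17 Zkscan and Zscan genes rose (23.5%) and none fell, and 6 of 11 Klf genes rose (54.5%) and 2 fell (18.2%), beside 17.8% and 19.8% of all tested genes. Without PBS2 the counts were 23 and 6 for Zbtb, 5 and 0 for Zkscan and Zscan, and 6 and 2 for Klf genes. The smallest adjusted p among the Zbtb genes was that of Zbtb21, with 36.3 ± 2.13 CPM in PBS, 137 ± 7.19 in MRC and 161 ± 4.02 in MRC+L (mean ± SD, n = 3) and a log2 fold change of 1.92 ± 0.10 (SE) after MRC (adjusted p = 1.77e-06). Zscan25 rose by 0.97 ± 0.12 (SE) and Klf11 by 1.68 ± 0.12 (SE) (adjusted p = 0.000260 and 6.62e-06). Without PBS2 Zbtb21, Zscan25 and Klf11 had 1.88, 0.86 and 1.66. Of 78 tested Zfp genes below the threshold of 1000 counts, 11 rose (14.1%) and 3 fell (3.85%), both below the shares of all tested genes, where low counts limit the test; without PBS2 it was 10 and 5 of 79.

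A list of genes with known roles, fixed by name, had 32 tested genes. After MRC 11 rose (34.4%), 3 fell (9.38%) and 18 had no call, beside 17.8% and 19.8% of all tested genes. Of the genes with a known role outside KRAB silencing, Zfp131, a BTB domain transcription factor, had the smallest adjusted p, with a log2 fold change of 0.83 ± 0.12 (SE) after MRC (adjusted p = 0.000551) and 1.03 ± 0.12 (SE) after MRC+L (adjusted p = 0.000116), or 0.71 and 0.92 without PBS2. Its libraries read 55.8, 43.5 and 56.4 CPM in PBS, 98.8, 83.7 and 94.1 CPM in MRC, and 105, 103 and 109.5 CPM in MRC+L. Zfp335, Zfp148, Zfp451, Zfp367, Zfp592 and Zfp598 also passed the threshold after MRC, at log2 fold changes of 0.86, 0.57, 0.63, 0.49, 0.42 and 0.37, or 0.58, 0.36, 0.42, 0.35, 0.27 and 0.32 without PBS2. Each of these 6 lost the call when at least MRC1 was left out (adjusted p = 0.0510 to 0.106), and Zfp592 reached 0.139 without MRC2. Exons of Zfp335 overlap those of another gene over 28.3% of their length. Zfp451 is a SUMO ligase, and Zfp598 is the ubiquitin ligase that marks collided ribosomes. Zfp207, a spindle protein that binds Bub3, fell: its libraries read 270.5, 226 and 287 CPM in PBS, 189, 182 and 199 CPM in MRC, and 204, 204 and 195 CPM in MRC+L. Its log2 fold change was -0.46 ± 0.11 (SE) after MRC (adjusted p = 0.00901) and -0.38 ± 0.11 (SE) after MRC+L (adjusted p = 0.0190), or -0.56 and -0.47 without PBS2; the MRC+L call was lost without PBS1 or any 1 MRC+L library (0.0551 to 0.0747).

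Some calls depended on PBS2. The breast cancer oncogene homologue Zfp217 read 111, 58.3 and 123 CPM in PBS, 66.1, 78.3 and 67.4 CPM in MRC, and 74.00, 65.5 and 67.4 CPM in MRC+L. PBS1 and PBS3 were above every exposed library and PBS2 below them, so the adjusted p after MRC was 0.133 with PBS2 and 1.37e-06 without it. Zfp462 had 70.4, 31.2 and 95.9 CPM in PBS and 61.5, 68.1 and 52.6 CPM in MRC, with adjusted p-values of 0.797 and 0.00287. Zfp687 and Zfp326 were likewise lower after MRC without PBS2 only (adjusted p = 0.000401 and 0.00375), and Zfp622, a factor of ribosome assembly whose PBS2 value of 70.9 CPM was the highest of 9, was higher only without it (adjusted p = 0.000243). In all, 18 genes were called lower and 10 higher after MRC only when PBS2 was left out. Calls were also gained among all tested genes. Without PBS2 24.7% were higher and 26.0% lower, beside 17.8% and 19.8% with it. Of the 247 genes, 40.5% were higher and 12.1% lower without PBS2, beside 36.4% and 4.86% with it. Whether the gains of the Zfp genes differ from those of all tested genes was not tested.

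The highest levels per kilobase of exon, averaged over all libraries, were those of Zfp106 (50.5 CPM per kb), Zfp598 (46.5), Zfp36l2 (45.6), Zfp146 (35.8) and Zfp706 (35.5). Zfp106, an RNA-binding protein of motor neurons and muscle, had 477, 285 and 574 CPM in PBS, 534, 572 and 506 CPM in MRC, and 603, 604 and 589.6 CPM in MRC+L. Its PBS values ran from below the exposed range to within it, and it had no call (adjusted p = 0.332 after MRC and 0.116 after MRC+L, and 0.836 and 0.0801 without PBS2). Zfp146, a protein made of little but fingers, rose by 0.64 ± 0.12 (SE) after MRC (adjusted p = 0.00254) and 0.75 ± 0.12 (SE) after MRC+L (adjusted p = 0.000784), or 0.52 and 0.64 without PBS2.

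Members stood in neighbouring groups on the chromosomes, and the groups differed in their values. Joining members less than 250 kb apart gave 16 groups of 3 or more, with 102 of the 247 genes. Within these and the smaller groups, 101 pairs of adjacent members had log2 fold changes of the same sign in 70 pairs after MRC and 71 after MRC+L (Pearson r = 0.29 and 0.26), where 191 and 186 of the 247 values were positive. Without PBS2 the pairs were 69 and 60 (r = 0.30 and 0.27), with 173 positive values after each exposure. As most values were positive, many pairs of any members share a sign. The rate for pairs that are not neighbours was not computed. Neighbours can share sequence, and the counts left out reads with several matches, so values of near-identical copies such as Zfp874a and Zfp874b, Zfp729a and Zfp729b, or Zfp955a and Zfp955b are uncertain.

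A group of 13 on chromosome 7 (29467977-29869175, GRCm39) had 9 genes higher and none lower after MRC (69.2% and 0%, beside 17.8% and 19.8% of all tested genes; median log2 fold change 0.64) and 8 higher after MRC+L (61.5%, beside 21.8%; median 0.53). All 13 values were positive after MRC, from 0.20 to 1.16, and without PBS2 there were again 9 higher after MRC and 8 after MRC+L, with medians of 0.52 and 0.45. The 9 were Zfp84, Zfp790, Zfp940, Zfp420, Zfp383, Zfp568, Zfp566, Zfp260 and Zfp146; Zfp84, Zfp940 and Zfp383 lost the call without MRC1 (adjusted p = 0.0781 to 0.168). Zfp940 also lost it without MRC3, MRC+L2, MRC+L3 or PBS1 (0.0518 to 0.0724), and Zfp383 without MRC3 or any 1 MRC+L library (0.0545 to 0.117). Zfp790 in this group had 12.2 ± 0.787 CPM in PBS, 20.99 ± 3.26 in MRC and 21.8 ± 0.449 in MRC+L (mean ± SD, n = 3). A group of 9 on chromosome 13 (67536024-67877292) had 5 higher (55.6%) and none lower after each exposure, with medians of 0.61 and 0.76, or 5 higher with 0.42 and 0.60 without PBS2. There Zfp65 rose by 0.77 ± 0.14 (SE) after MRC (adjusted p = 0.00222) and 0.90 ± 0.14 (SE) after MRC+L (adjusted p = 0.000719), or 0.72 and 0.86 without PBS2. Zfp729a lost the call after MRC without MRC1, MRC2 or PBS1 (0.06195 to 0.06656). Zfp874a lost that after MRC+L without MRC+L1 or PBS1 (0.0697 and 0.0639). Both have near-identical copies in the group. A group of 6 on chromosome 6 (47812595-48063527) had 4 higher, Zfp398, Zfp282, Zfp777 and Zfp746 (66.7%), after MRC with a median of 0.51, and 4 with 0.52 without PBS2. The call for Zfp777 was lost without MRC1, MRC2 or PBS1 (0.0642 to 0.0847).

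A group of equal size on chromosome 17 (21670636-22675670), in which all 13 genes matched the KRAB pattern, had 1 higher (Zfp51) and 1 lower (Zfp53) after MRC (7.69% each), with a median of 0.05, and 1 higher and 3 lower (7.69% and 23.1%) after MRC+L, with a median of -0.09. Of all tested genes, 17.8% rose and 19.8% fell after MRC, and 21.8% and 24.5% after MRC+L. Zfp51 changed by 0.53 ± 0.14 (SE) and Zfp53 by -0.45 ± 0.11 (SE); the calls were lost without MRC3 (adjusted p = 0.0587) and without MRC1 (0.0560). Without PBS2, 1 was higher and 4 were lower after MRC, the median changed sign to -0.06, and the values of Zfp51 and Zfp53 were 0.43 and -0.42; after MRC+L, 1 was higher and 3 lower, with a median of -0.18. A second group on chromosome 17 (32984470-33850753) had 2 of 12 higher (16.7%) and 1 lower (8.33%) after MRC, with a median of 0.08; without PBS2 it had 2 higher and 2 lower, with a median of -0.05. Its higher genes, Zfp472 and Zfp952, both lost the call without MRC1 (adjusted p = 0.0895 and 0.0792), and Zfp952 also without MRC3 (0.0591). The remaining groups of 6 or more, both on chromosome 7, had 3 of 9 and 2 of 6 higher (33.3% each) and none lower after MRC. Their medians were 0.27 and 0.33, or 0.15 and 0.20 without PBS2. Of the 102 members in groups of 3 or more, 34.3% rose after MRC, beside 37.9% of the 145 alone or in pairs. Groups were set by position alone, and the difference between them was not tested.

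**Figure D5:**
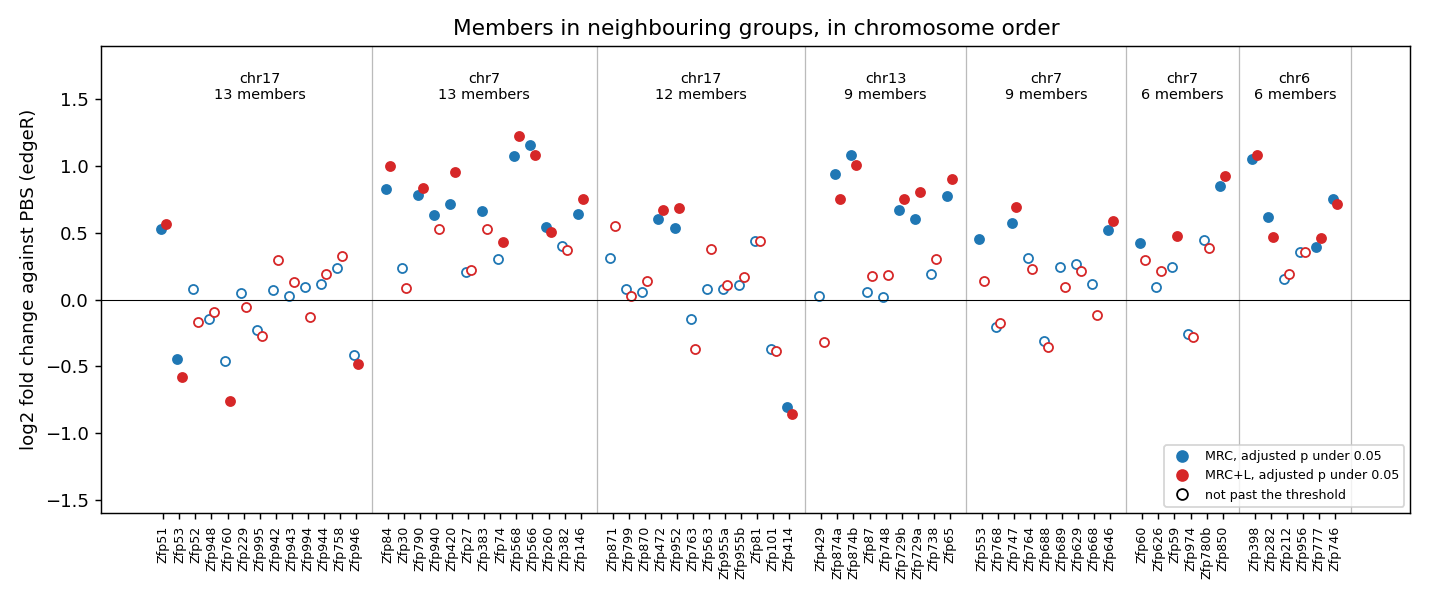
Log2 fold change against PBS (y) of Zfp genes in the 7 neighbouring groups of 6 or more members, in chromosome order (x); blue is MRC, red is MRC+L, and filled points have an adjusted p under 0.05. After MRC, 9 of 13 points are filled and positive in the chromosome 7 group of 13, against 1 of 13 in the chromosome 17 group of 13.

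Promoter sequences were searched because many of these genes moved together. RefSeq start sites (GRCm38.p6) were matched by symbol for 206 of the 247 genes, giving 252 windows of 250 bases before the start. The ETS motif searched was CCGGAAG. The cAMP response element was searched as TGACGTCA, the core of the antioxidant response element as TGACNNNGC, and the joint element of C/EBP and ATF factors as TGATGCAA. The E2F motif was TTTGGCGC, the core bound by the factor Zfp143 was ACTACAA, and the motif of the TATA-binding protein was TATAAA. A core of the NRF1 site was searched as GCGCANGCG and a core of the interferon-stimulated response element as GAAANNGAA. Each was searched on both strands, no motif contains another, matches of different motifs can share bases, and a window counted once for each motif it held. CCGGAAG was the most common, in 17.1% of the 252 windows, 13.8% of windows of all tested genes and 6.91% of all windows in the table. It stood in 17.4% of windows of genes that rose after MRC and in 16.4% of windows of genes with no call. TGACGTCA stood in 4.37% of the Zfp windows and 2.65% of those of tested genes, in 6.52% where the gene rose and 3.29% where it had no call. The antioxidant core stood in 12.3%, 11.8%, 13.0% and 11.8% in the same order. GCGCANGCG stood in 9.13% of the Zfp windows and 10.8% of those of tested genes, in 6.52% (6 of 92) where the gene rose and 11.2% (17 of 152) where it had no call. GAAANNGAA stood in 5.95%, 6.03%, 7.61% and 5.26% in that order. The other 4 motifs stood in 0.397% to 5.95% of the Zfp windows. These shares are descriptions, and a match is no evidence of binding.

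In all, 5 of these windows are shown, 5′ to 3′ on the gene's strand, with matches in capitals: Zfp945 (chr17:22867135-22867384, - strand), Zfp202 (chr9:40192066-40192315, + strand) and Zfp142 (chr1:74588029-74588278, - strand), which rose and hold CCGGAAG or its complement; Zfp36 (chr7:28379229-28379478, - strand), which fell and holds it too; and Zfp503 (chr14:21989602-21989851, - strand), which fell and holds none of the motifs.
Zfp945: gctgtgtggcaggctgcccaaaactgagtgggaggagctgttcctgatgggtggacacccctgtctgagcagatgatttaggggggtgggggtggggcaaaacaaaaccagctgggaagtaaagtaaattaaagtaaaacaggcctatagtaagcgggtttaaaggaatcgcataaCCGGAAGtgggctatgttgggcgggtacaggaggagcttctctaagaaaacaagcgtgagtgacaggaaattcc
Zfp202: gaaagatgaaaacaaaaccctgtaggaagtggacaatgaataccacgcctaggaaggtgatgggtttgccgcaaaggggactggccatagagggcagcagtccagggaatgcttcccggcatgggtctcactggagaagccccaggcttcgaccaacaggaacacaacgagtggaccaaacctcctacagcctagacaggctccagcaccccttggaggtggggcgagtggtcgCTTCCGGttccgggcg
Zfp142: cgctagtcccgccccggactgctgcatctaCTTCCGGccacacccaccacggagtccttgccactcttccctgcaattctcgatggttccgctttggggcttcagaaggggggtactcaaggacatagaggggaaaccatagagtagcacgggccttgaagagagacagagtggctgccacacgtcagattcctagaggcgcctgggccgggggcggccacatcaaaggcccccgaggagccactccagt
Zfp36: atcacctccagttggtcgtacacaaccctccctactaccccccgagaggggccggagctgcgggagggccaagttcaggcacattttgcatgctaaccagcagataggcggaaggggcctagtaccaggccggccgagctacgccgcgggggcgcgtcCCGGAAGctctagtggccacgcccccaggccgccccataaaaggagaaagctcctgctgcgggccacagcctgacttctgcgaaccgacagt
Zfp503: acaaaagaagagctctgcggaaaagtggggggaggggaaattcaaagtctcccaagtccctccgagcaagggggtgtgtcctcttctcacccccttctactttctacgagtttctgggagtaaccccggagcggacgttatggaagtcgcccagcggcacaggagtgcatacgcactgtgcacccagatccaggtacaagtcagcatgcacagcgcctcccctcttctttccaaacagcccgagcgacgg
The number of CG dinucleotides in these windows was 5, 10, 13, 18 and 13, beside a median of 12.5 over the Zfp windows and 15 over windows of tested genes.

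The last comparison asks what light added to the nanoparticles, and was fitted to the 6 exposed libraries. It called 7 of the 247 genes higher and none lower, beside 3.13% and 1.91% of 12955 tested genes, so the share was near that of all genes. The median log2 fold change was 0.03, and 48 genes had an unadjusted p under 0.05. DESeq2 called 8 higher and 1 lower. The 7 were Zfp654, Zfp292, Zfp280d, Zfp9, Zfp800, Zfp638 and Zfp871.

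Zfp292, a large zinc finger protein, had the smallest adjusted p. Its libraries read 136, 122 and 119 CPM in MRC and 164, 169 and 151 CPM in MRC+L. The groups did not overlap, and the log2 fold change was 0.37 ± 0.07 (SE) (adjusted p = 0.00317). Zfp654 read 24.5, 24.3 and 23.5 CPM in MRC and 32.03, 29.3 and 32.01 CPM in MRC+L, at 0.37 ± 0.09 (SE) (adjusted p = 0.0184). Zfp9 changed by 0.33 ± 0.08 (SE) (adjusted p = 0.0221) and Zfp800 by 0.32 ± 0.07 (SE) (adjusted p = 0.0141). Zfp280d, Zfp638 and Zfp871 were higher by 0.34, 0.24 and 0.24 and lost the call when the gene-length trend was removed. Zfp292 was the 1 gene called however the libraries were left out singly; the other 6 lost the call without at least MRC+L2 (adjusted p = 0.0512 to 0.278). When all 9 libraries entered the fit, edgeR called none of the 247 and none of all tested genes, and 5 and 573 had an unadjusted p under 0.05. Across the 247 genes the log2 fold change went with exon length at r = 0.29, and at -0.06 with the length trend removed.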

How the data were processed

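RNA of 9 libraries was measured, with a table of raw counts for each. Per the file headers, the authors obtained the deposited counts by running featureCounts 2.0.1 in paired mode on exon features grouped by gene ID, using Ensembl 104 gene models on GRCm39; the command shows no option for strand or for reads with several matches. Which aligner was used is not given in the sources used here. Symbols and biotypes came from GENCODE M21 (GRCm38), matched by gene ID for 52135 of 55416 IDs (94.1%). Library totals were 15019765 to 20044166 counts; counting limits cover counting error only.

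The quasi-likelihood test of edgeR 4.0.16 (R 4.3.3, TMM factors, 1 mean per group) was fitted to all genes that passed filterByExpr (minimum count 10, minimum total 15), with Benjamini-Hochberg adjustment over all tested genes. Both comparisons with PBS used all 9 libraries and MRC+L against MRC its 6. The biological coefficient of variation within groups was 0.28 in PBS, 0.081 in MRC and 0.058 in MRC+L. For this reason MRC+L against MRC was fitted apart. In the comparisons with PBS, 1 shared estimate of spread can understate that of the controls. Fewer Zfp genes were called after MRC when only the 6 libraries of both groups were fitted. Alternatives were RLE factors, DESeq2 1.42.0, no filter, each library left out, the replicate number as a block, a gene-length offset (lowess span 0.3), a member threshold of 2000 and other sets of libraries in the fit. The scripts were tested on simulated counts in which each group had its own spread. For MRC against PBS, genes changed 1.5-, 2- and 4-fold were called in 12 of 62, 45 of 64 and 71 of 73, and unchanged genes in 22 of 12951. For MRC+L against PBS it was 11 of 77, 35 of 64, 55 of 55 and 14 of 12945. For MRC+L against MRC it was 59 of 71, 66 of 67, 55 of 55 and 8 of 12613. Against PBS most simulated 1.5-fold changes were missed, and false calls were a larger part of all calls. The simulated counts differ from the data. Few genes were changed, all genes of a group had a common spread, and no library had a gene-length trend like that of PBS2. These rates may therefore not hold for the data.

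KRAB, C2H2, CCCH and SCAN classes came from patterns in translated M21 transcripts. The KRAB and CCCH patterns were adjusted after reading proteins, and they can miss divergent domains. The members, gene lists and tests were chosen with earlier results of these data known. The text names up to 8 members with the largest log2 fold change in each direction. These are members called with and without PBS2 whose groups do not overlap and whose higher group has at least 2 CPM. It also names the 5 highest per kb, the genes next to the threshold, and genes from a set of 34 with known roles. Of that set, Zfp423, Zfp521 and Zfp593 are not among the 247, and some genes without a call are not described. Genes named for their place in a neighbouring group were chosen after their values were seen. The promoter motifs, too, were chosen with results known. They were first searched in windows that ran 50 bases past the start, and the NRF1 and interferon elements as longer forms of 10 letters; those values had been seen before the windows were cut and the forms shortened. The printed promoters and finger units were chosen after their values and matches were seen.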

Additional observations from a re-analysis of the deposited data

How the results depend on the processing

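For MRC against PBS, the counts of Zfp genes were 90 higher, 12 lower and 102 in all, with a median log2 fold change of 0.304. With each library left out in turn, 49 to 115 were higher, 9 to 30 lower and 58 to 130 called in all, and the median was 0.206 to 0.383. Fewest were higher without MRC1 (49) and most lower without PBS2 (30). With the gene-length trend removed 21 were lower, and with only the 6 libraries of both groups in the fit 53 were higher and 63 called in all. Shares of all tested genes were not computed for the 6-library fit or for single libraries left out other than PBS2. Settings added after seeing the data, without PBS2, gave 24 lower and a median of 0.212 with DESeq2, and 30 lower and 0.223 with the length trend removed. For MRC+L against PBS (98 higher, 18 lower, 116 in all, median 0.347) the leave-one-out ranges were 79 to 119 higher, 10 (without MRC+L2) to 28 (without PBS2) lower, 89 to 139 in all, and 0.232 to 0.402 for the median. The added settings without PBS2 gave a median of 0.237 with DESeq2, and 30 lower with a median of 0.225 with the length trend removed. For MRC+L against MRC (7 higher, 0 lower, median 0.0250), leaving out 1 library gave 1 (without MRC+L2) to 19 (without MRC2) higher, 0 lower, 1 to 19 in all, and a median of 0.0191 to 0.0506. DESeq2, no filter and the length trend removed each gave 1 lower, the fit to all 9 libraries gave 0 higher and 0 in all, and members with 2000 or more counts had a median of 0.0413. The cause of these shifts was not tested, beyond fewer samples where a library was left out. With the replicate number as a block, 79 were higher and 12 lower after MRC, 92 and 16 after MRC+L, and 10 and 0 for MRC+L against MRC. Correlations of same-numbered libraries ran from -0.185 to 0.0385, so the libraries share only a number. Neither a called value of a named gene nor the median of the 247 changed sign under these alternatives. Signs did change for some values without a call, for the medians after MRC of both chromosome 17 groups (0.05 to -0.06 and 0.08 to -0.05 without PBS2), and for the correlation with exon length (0.09 to -0.05 after MRC without PBS2, and 0.29 to -0.06 in MRC+L against MRC with the length trend removed).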
